A study of Mus musculus with 4 samples.

Results

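The insulin-like growth factor (IGF) genes described here are the ligands Igf1 and Igf2, the receptor Igf1r and the binding proteins Igfbp2 to Igfbp7, 9 genes of the 32285 in the deposited matrices. They were looked up in the matrices by gene symbol, and each symbol matched 1 gene. The list itself was set with earlier results of these data known. Mouse brains were frozen fresh, cut at 10 µm and placed on Visium slides, whose barcoded spots capture RNA from a small area that can hold several cells. All mice were homozygous for a floxed allele of Pdcd10 (Pdcd10fl/fl), the gene also called Ccm3, and were given 50 µg of 4-hydroxytamoxifen on postnatal day 1. The brains were analysed on day 65. The 2 knockout libraries came from mice that also carried Slco1c1-iCreERT2, a tamoxifen-activated Cre recombinase, and the 2 control libraries from littermates without Cre. The Slco1c1 promoter is active in brain endothelial cells and also in the epithelium of the choroid plexus. Brain endothelium that has lost Pdcd10 forms cerebral cavernous malformations, which are enlarged, leaky capillary beds. Titles and design text place all 4 libraries in normoxia, the knockouts are hypoxic by a treatment label, and the treatment protocol of all 4 names 12% oxygen, so genotype and oxygen cannot be told apart where they may coincide. The labels do not say whether the libraries of a group are different mice. The p-values therefore speak only for these 4 libraries, and differences within a group may be technical. The test used, edgeR's quasi-likelihood test, also draws on other genes to estimate spread. A very small p, such as some given below, thus does not measure the spread of these libraries alone.

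IGF1 and IGF2 are secreted peptides that act through the receptor tyrosine kinase IGF1R, which signals to growth and survival through insulin receptor substrates, PI3K, AKT and mTOR. IGF-binding proteins hold most extracellular IGF. They lengthen its life, keep it from the receptor or release it when they are cleaved, and IGFBP7 binds IGFs more weakly than the others do. In the brain Igf2 is known mainly from the leptomeninges and choroid plexus, Igf1 from some neurons and from activated microglia, Igfbp2 from astrocytes, meninges and choroid plexus, and Igfbp7 from vessels.

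Total counts were 50148764 to 74467027 UMIs (unique molecular identifiers, 1 per captured RNA molecule) per library, and spots of at least 1000 UMIs were kept, 2931 to 4599 per library with medians of 8158 to 16226.5 UMIs. The 4 libraries list the same slide barcodes, and pairs of libraries shared 2719 to 4329 kept barcodes, which are positions and not cells. Levels of whole sections are counts per 1000000 UMIs (CPM) after scaling by TMM factors. Pdcd10 measured 90.9, 82.3, 80.3 and 83.0 CPM in control 1, control 2, knockout 1 and knockout 2, a log2 fold change of -0.08, but the counted 3′ end need not be part of the deletion and most RNA of a spot is not endothelial, so this level does not check the labels. As read from marker genes, sections also differed in content between the groups. Such a reading cannot tell a difference in the tissue cut from one in RNA per cell. White matter spots, by a list of region markers, made up 34.5% and 37.9% of spots of at least 5000 UMIs in the controls against 13.7% and 11.9% in the knockouts, and midbrain and hindbrain spots were 3.22% and 2.42% against 12.2% and 11%. Summed marker levels moved as well: the reactive astrocyte list measured 180 and 198 CPM in controls against 1588 and 1553 CPM in knockouts, and the endothelial list 348 and 361 against 807 and 770 CPM. The choroid plexus list measured 143 and 67.3 against 25.3 and 28.2 CPM, and the oligodendrocyte list 9236 and 12840 against 5494 and 4044 CPM. The part of such content in the results below was tested only by the alternatives named beside them.

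In whole sections the binding proteins Igfbp2, Igfbp7 and Igfbp3 rose most in the knockouts, Igfbp6 and the receptor Igf1r rose less, and Igfbp5 and Igf2 fell. In all, 7 of the 9 genes passed edgeR's quasi-likelihood test at an adjusted p under 0.05 (Benjamini-Hochberg over all genes tested), 5 higher and 2 lower. Of all 17546 genes tested, 38.4% passed, 20.1% higher and 18.3% lower. Both knockout libraries lay beyond both control libraries for 8 of the 9 genes, and the same was true of 72.5% of all genes. In sections, fewer cells of a type and less RNA per cell cannot be told apart.

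**Figure D1:**
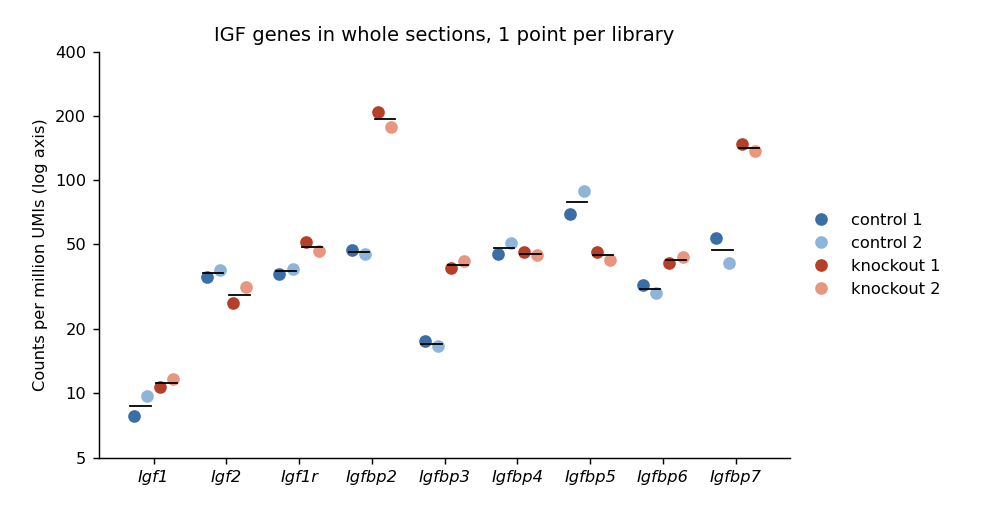
Level of each gene in whole sections, in CPM on a log axis, with 1 point per library (2 control, 2 knockout) and a line at each group mean. Igfbp2, Igfbp3 and Igfbp7 sit higher in both knockout libraries than in both controls, Igfbp5 sits lower, and the groups overlap only for Igfbp4.

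Igfbp2 (chromosome 1, 72824480 to 72852474, GRCm38.p6, which is the mm10 of the deposited files) encodes a soluble carrier of both IGFs that also binds integrins. It measured 47.0 and 45.1 CPM in control sections against 208 and 177 CPM in knockout sections. The rise was 4.19-fold (log2 2.07, SE 0.0949, adjusted p 1.7e-05), and the gap between the groups was far wider than the spread within either. It stayed when spots rich in meningeal, choroid plexus or pituitary markers were left out (log2 2.37) and when equal numbers of spots per region were compared (log2 2.23).

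Igfbp5 lies next to Igfbp2 on the same chromosome (72858065 to 72874865), with 5590 bases between the genes, and changed in the opposite direction. IGFBP5 binds both IGFs and the extracellular matrix. Its level was 69.6 and 89.3 CPM in control sections against 46.3 and 42.5 CPM in knockout sections, so the controls differed from each other by more than the knockouts did. The log2 fold change was -0.84 (SE 0.119, adjusted p 0.00201).

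Igfbp7 (chromosome 5, 77349240 to 77408045), a matrix protein of vessel walls, measured 53.7 and 41.0 CPM in control sections against 148 and 137 CPM in knockout sections. This was a 3.01-fold rise (log2 1.59, SE 0.125, adjusted p 0.000163). Igfbp3 (chromosome 11, 7206086 to 7215498), the main carrier of IGF in blood, measured 17.6 and 16.7 CPM in control sections against 38.8 and 41.7 CPM in knockout sections, a 2.35-fold rise (log2 1.23, SE 0.0743, adjusted p 5.3e-05). The 2 Igfbp7 controls differed more from each other than the 2 Igfbp3 controls did, and the knockouts lay above both controls for both genes.

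The 250 bases before the start of the first listed RefSeq transcript are printed for the 4 binding proteins with the widest changes, in sequence of GRCm38.p6. They were chosen since the neighbours Igfbp2 and Igfbp5 moved apart while Igfbp2, Igfbp3 and Igfbp7 rose together. The Igfbp3 start used lies inside the span given for that gene above, so its window is not before the whole gene. Capitals mark matches on either strand to the TATA box (TATAAA), the GC box (GGGCGG), a hypoxia response core in either of its forms (ACGTG, and its variant GCGTG) and the box of Krüppel-like factors (CACCC). The positions are chr1:72824230-72824479 (+ strand) for Igfbp2, chr1:72874866-72875115 (- strand) for Igfbp5, chr11:7213924-7214173 (- strand) for Igfbp3 and chr5:77408046-77408295 (- strand) for Igfbp7.
Igfbp2: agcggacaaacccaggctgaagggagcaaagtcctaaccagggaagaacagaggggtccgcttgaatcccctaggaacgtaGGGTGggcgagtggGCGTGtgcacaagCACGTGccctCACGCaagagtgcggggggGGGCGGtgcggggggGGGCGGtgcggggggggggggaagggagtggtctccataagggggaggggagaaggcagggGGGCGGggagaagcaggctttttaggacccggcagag
Igfbp5: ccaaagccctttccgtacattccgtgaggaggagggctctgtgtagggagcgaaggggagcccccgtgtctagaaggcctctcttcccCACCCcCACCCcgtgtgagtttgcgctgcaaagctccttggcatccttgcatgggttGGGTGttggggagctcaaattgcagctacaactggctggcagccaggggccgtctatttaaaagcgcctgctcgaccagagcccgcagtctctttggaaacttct
Igfbp3: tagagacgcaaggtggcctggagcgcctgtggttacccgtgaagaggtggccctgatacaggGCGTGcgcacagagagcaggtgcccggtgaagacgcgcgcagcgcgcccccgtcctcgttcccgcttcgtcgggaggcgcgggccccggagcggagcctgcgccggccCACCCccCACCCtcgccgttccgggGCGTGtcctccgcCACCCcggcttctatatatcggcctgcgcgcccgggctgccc
Igfbp7: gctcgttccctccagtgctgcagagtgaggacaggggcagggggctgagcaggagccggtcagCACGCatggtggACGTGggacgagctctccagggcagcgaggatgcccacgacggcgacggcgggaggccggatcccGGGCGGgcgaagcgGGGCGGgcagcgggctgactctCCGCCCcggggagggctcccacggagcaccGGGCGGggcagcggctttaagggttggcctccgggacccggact

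All 9 genes had at least 1 such window, 13 in all. Igfbp2 had a second, not printed, that held only CACCC, in 2 places. The counts that follow are of the printed windows. GGGCGG, the core of a GC box, occurred 3 times before Igfbp2 and 4 times before Igfbp7, and it occurs in 32.7% of 32851 promoters of the same length. ACGTG, the core shared by E-boxes of the CACGTG kind and hypoxia response elements, matched at 1 palindromic site before Igfbp2 and once before Igfbp7, against 16.6% of promoters. GCGTG matched in 2 places each before Igfbp2 and Igfbp3 and once before Igfbp7, against 28.2% of promoters. The Igfbp5 window held only CACCC, in 3 places, a motif that also matched 3 times before Igfbp3 and once before Igfbp2 and is found in 52.0% of promoters, and none of the 4 windows held TATAAA, which 12.4% hold. G and C made up 67.2% of the Igfbp2, 73.2% of the Igfbp3, 74% of the Igfbp7 and 58.8% of the Igfbp5 window. The median over all promoters was 52.4%, and the part of this in the matches was not tested. These are matches of letters and not measured binding.

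Igfbp6 (chromosome 15, 102144186 to 102149512), which prefers IGF2 over IGF1, measured 32.4 and 29.7 CPM in control sections against 41.0 and 43.9 CPM in knockout sections. The groups did not overlap, and the rise was 1.37-fold (log2 0.45, SE 0.0751, adjusted p 0.00383). With equal numbers of spots per region the change was smaller and not called (log2 0.24, adjusted p 0.103). Igfbp4 (chromosome 11, 99040005 to 99052655), a carrier that the protease pappalysin cleaves, was the only gene of the 9 whose groups overlapped. It measured 45.3 and 50.6 CPM in control sections against 46.0 and 44.6 CPM in knockout sections (log2 -0.08, SE 0.0759, adjusted p 0.426), and the sign turned when spots were thinned to 1000 UMIs (log2 0.27) or matched by region (log2 0.06).

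The receptor gene Igf1r (chromosome 7, 67952257 to 68233668) measured 36.4 and 38.5 CPM in control sections against 51.4 and 46.4 CPM in knockout sections. Both knockouts lay above both controls, by 1.30-fold (log2 0.38, SE 0.0766, adjusted p 0.00773). Among the ligands, Igf1 (chromosome 10, 87858265 to 87937047) was the least counted, with 382, 598, 576 and 904 UMIs in the 4 libraries. Its level was 7.82 and 9.73 CPM in control sections against 10.7 and 11.7 CPM in knockout sections, and the change was not called (log2 0.35, SE 0.125, adjusted p 0.0608). The adjusted p of Igf1 fell below 0.05 under 6 alternatives, among them without control 2 (log2 0.52, adjusted p 0.00562), without knockout 1 (log2 0.42, adjusted p 0.0471) and with the replicate numbers as a block (adjusted p 0.0461).

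Igf2 (chromosome 7, 142650768 to 142666816) measured 35.3 and 37.9 CPM in control sections against 26.5 and 31.5 CPM in knockout sections, a log2 fold change of -0.33 (SE 0.0948, adjusted p 0.0289). The lower level was not called in several settings. Without spots rich in meningeal, choroid plexus or pituitary markers the change was -0.11 (adjusted p 0.750), and without knockout 1 it was -0.22 (adjusted p 0.176). Scaling by library totals gave -0.26 (adjusted p 0.0788), spots of at least 5000 UMIs -0.38 (adjusted p 0.0726) and spots thinned to 1000 UMIs -0.33 (adjusted p 0.0563). With equal numbers of spots per region it was -0.63 (adjusted p 0.00416). The opposite-strand genes Igf1os and Igf2os held at most 2 and 7 UMIs per library.

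**Figure D2:**
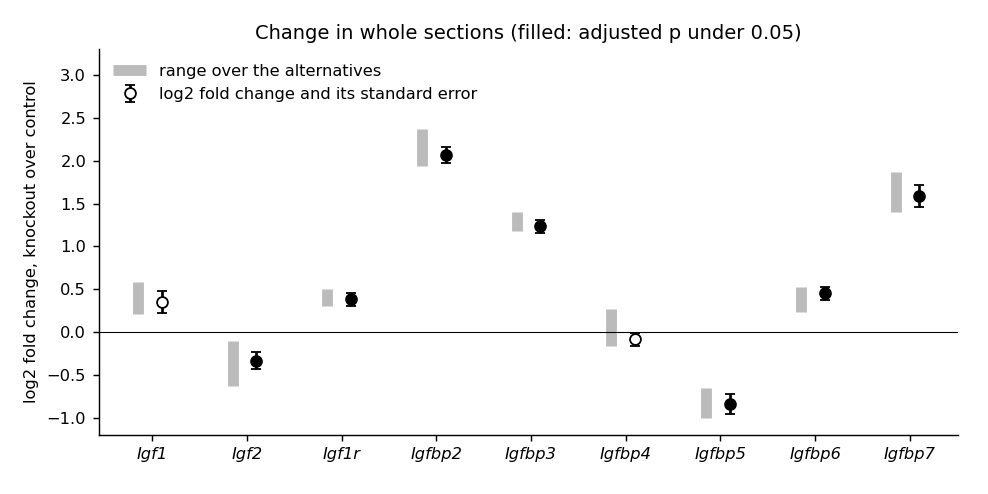
Log2 fold change of each gene in whole sections, knockout over control, with its standard error (points, filled where the adjusted p is under 0.05) beside the range over the alternative settings (grey bars). Igfbp2, Igfbp3 and Igfbp7 stay above 1 in every setting and Igfbp5 below 0, while the bar of Igfbp4 crosses 0.

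The share of spots in which a gene was seen did not overlap between the groups for all 9 genes in spots thinned to 5000 UMIs, beside 66.3% of all genes tested. Without thinning this held for 6 genes (38.4% of all genes) and with thinning to 1000 UMIs for 8 (57.3%). Igfbp4, whose level overlapped, was seen in 19.3% and 18.3% of control spots against 20.6% and 19.9% of knockout spots at 5000 UMIs. In spots of at least 5000 UMIs thinned to that number, Igfbp2 had a UMI in 19.7% and 18.8% of control spots and in 55.2% and 52.5% of knockout spots. Igfbp7 was seen in 23.9% and 18.3% against 49.0% and 48.2%, and Igfbp3 in 7.45% and 6.84% against 18.5% and 17.6%. Igfbp5 was seen less widely in the knockouts, in 20.3% and 19.9% of spots against 27.8% and 33.0%. The 95% Wilson intervals, which cover counting error only, ran for Igfbp2 from 18.1% to 21.4% in control 1 and from 50.8% to 54.2% in knockout 2. Spots with at least 5 UMIs of Igfbp2 numbered 19 and 10 in the controls against 133 and 128 in the knockouts. The highest count of Igf2 in a thinned spot was 20, 14, 4 and 18 UMIs in control 1, control 2, knockout 1 and knockout 2, lowest in knockout 1. Shares of 2 against 2 libraries were not tested.

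Other genes of IGF signalling, from a list of 44, moved in both directions. Of the 39 that could be tested, 11 rose, 6 fell and 22 did not pass, so that 43.6% were called beside 38.4% of all genes. The median log2 fold change was 0.10, beside -0.00 over all genes. The 8 named here are those with the smallest p among the called genes of at least 5 CPM.

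Grb14, an adaptor that blocks the insulin receptor kinase, changed most of the 8, from 91.7 and 89.7 CPM in the controls to 34.8 and 33.4 CPM in the knockouts (log2 -1.41, SE 0.0666, adjusted p 1.8e-05). Insr, the insulin receptor, which also forms hybrid receptors with IGF1R, rose from 20.2 and 22.1 CPM to 33.6 and 33.2 CPM (log2 0.66, adjusted p 0.000804). The other rises were those of Shc1, an adaptor to the MAP kinase pathway (log2 0.68), Htra1, a secreted protease that cleaves IGFBPs (log2 0.72), Adam9, a membrane metalloprotease (log2 0.40), and Pik3r1, a regulatory subunit of PI3K (log2 0.32). Htra1 measured 159 and 192 CPM in control sections against 313 and 267 CPM in knockout sections. Gab1, a docking protein, and Rptor, a subunit of mTOR complex 1, fell by 0.59 and 0.42 on the log2 scale. The rise of Pik3r1 was not called without control 1 (adjusted p 0.0512) or without knockout 1 (adjusted p 0.149).

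To place the genes in tissue, spots were classed by 12 lists of marker genes, none of which holds a member of the family. A class is the top 10% of a library's kept spots by the share of UMIs from a list, so classes overlap, spots mix cell types, and the same class can stand at another marker level in another library. The reactive astrocyte class held 1181 and 1049 CPM of its markers in control libraries against 5073 and 5271 CPM in knockout libraries. The choroid plexus class held 2080 and 724 CPM against 158 and 159 CPM, so the knockout spots of that class held few choroid plexus markers. Spots of the meningeal and vascular classes were also shallow, with medians of 2057 to 8346 UMIs. Reactive astrocyte (2374.5 to 7312 UMIs), activated phagocyte (3228.5 to 9907) and microglia spots (4100.5 to 10580) also had lower medians than other spots in every library. Each result was therefore repeated on spots of at least 5000 UMIs thinned to 5000, with the classes formed anew. That repeat leaves out the shallower spots, so it cannot show whether depth matters for them.

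Each class was compared with the other spots of the same libraries, with the library as a block, in 108 pairs of gene and class. Members of the family were most often higher in vascular spots and least often in inhibitory neuron spots. In the meningeal class 7 of the 9 genes were higher than in other spots, beside 11.5% of all genes. All 9 were higher in the mural and in the lesion endothelial class, beside 16.8% and 16.0% of all genes, and 8 in the endothelial class, beside 16.3%. The reactive astrocyte class had 8 higher (18.6% of all genes), the microglia class 6 (13.5%), the astrocyte class 5 (22.4%), and the activated phagocyte class 4 (11.9%). Higher levels were fewest in the choroid plexus class with 3 (10.9%), the excitatory neuron class with 3 (13.7%), the oligodendrocyte class with 2 (20%) and the inhibitory neuron class with 0 (1.82%). Lower levels were called for 4 genes in the oligodendrocyte class (22.1% of all genes lower), 3 in the inhibitory neuron class (3.57%), 2 in the excitatory neuron class (15.4%) and 2 in the astrocyte class (21.3%). In either direction, the share of all genes that differed was 19.0% in the meningeal, 21.0% in the choroid plexus, 28.9% in the endothelial, 31.3% in the mural, 28.8% in the lesion endothelial and 43.7% in the astrocyte class. It was 35.5% in the reactive astrocyte, 22.3% in the microglia, 18.0% in the activated phagocyte, 42.1% in the oligodendrocyte, 29.1% in the excitatory neuron and 5.39% in the inhibitory neuron class. In all 75 pairs passed, 64 of them higher in the class, and 50 kept their call under every alternative. Without the meningeal spots, which leaves 99 pairs, 58 passed, against 68 of the same 99 with them.

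**Figure D3:**
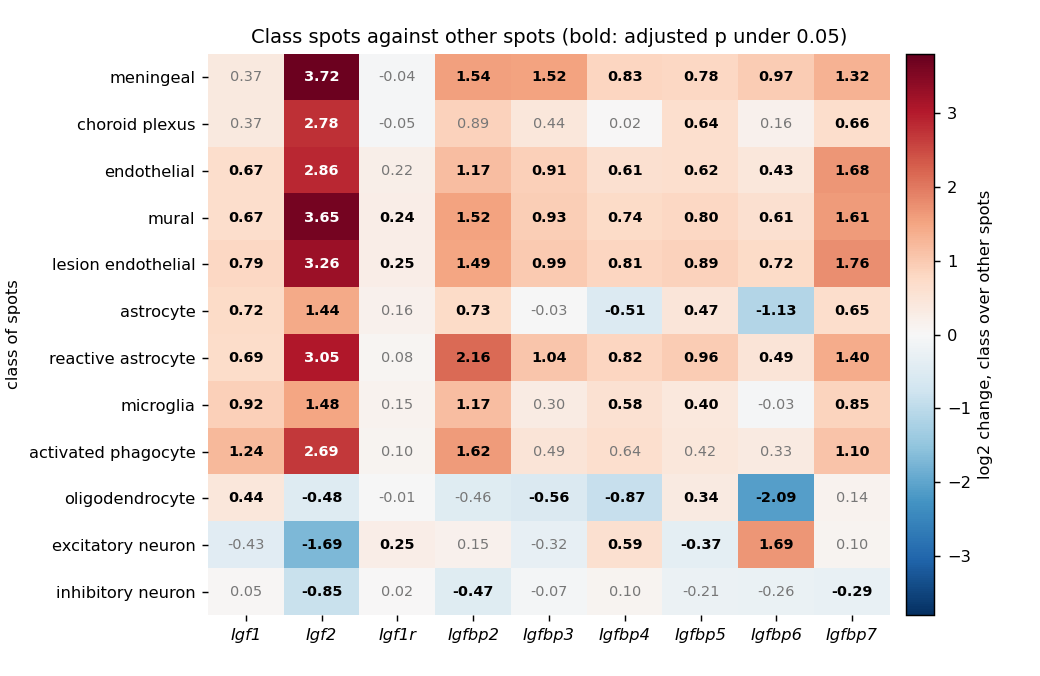
Log2 change of each gene (columns) between spots of a class (rows) and the other spots of the same libraries, over 4 libraries, with bold values where the adjusted p is under 0.05. Igf2 is highest in meningeal and mural spots, Igfbp2 in reactive astrocyte spots, Igfbp7 in the endothelial classes and Igfbp6 in excitatory neuron spots.

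Igf2 was concentrated in meningeal spots. Its level there was 323, 242, 134 and 314 CPM in control 1, control 2, knockout 1 and knockout 2 (CPM of the summed UMIs), against 17.3, 22.2, 22.3 and 14.6 CPM in the other spots. The log2 change was 3.72 (SE 0.26, adjusted p 3.1e-05). These spots held 5.73%, 6.52%, 4.02% and 6.05% of all UMIs but 53.2%, 43.2%, 20.1% and 58.1% of those of Igf2. Knockout 1 stood apart from the other 3, and its meningeal class also held fewer UMIs of its own markers, 1363 CPM against 1996 to 2403. In both controls the reactive astrocyte class held still more Igf2 than the meningeal class, as given below. Part of those reactive astrocyte spots were also meningeal.

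The mural class, by markers of pericytes and smooth muscle, reached 331, 284, 121 and 301 CPM of Igf2 (log2 3.65 over other spots), and 25.9% to 41.4% of its spots were also meningeal. Without the meningeal spots the mural change was 1.96 and the endothelial one fell from 2.86 to 1.65, both still called (adjusted p 3.0e-15 and 1.8e-12). The choroid plexus class had a change of 2.78 that was 0.98 without meningeal spots and was not called without control 2 (adjusted p 0.0506). Excitatory neuron spots held the least, 6.95 to 14.9 CPM (log2 -1.69, adjusted p 1.6e-05, and -0.98 without meningeal spots).

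Igf1, in contrast, was highest in the activated phagocyte class, spots rich in Gpnmb, Spp1, Lgals3 and other genes of lipid-laden and border macrophages. It measured 11.4 and 14.2 CPM there in control libraries and 29.2 and 35.9 CPM in the knockout ones, while the other spots held 7.5 to 11 CPM. The class change was 1.24 (SE 0.21, adjusted p 0.00895), and that of microglia spots 0.92 (SE 0.20, adjusted p 0.0096). Igf1r differed little between classes, from -0.05 to 0.25 on the log2 scale. It was called in 3 classes, and in excitatory neuron spots (log2 0.25, adjusted p 0.0171) the call was lost under 5 alternatives.

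Among the binding proteins, Igfbp2 stood highest in reactive astrocyte spots, those rich in Gfap, Vim and Serpina3n. It measured 283, 160, 608 and 542 CPM there against 34.7, 37.2, 188 and 164 CPM in the other spots of control 1, control 2, knockout 1 and knockout 2 (log2 2.16, SE 0.18, adjusted p 9.7e-05). Part of these spots were also meningeal, a larger share in the controls, as given below. Meningeal spots of the controls were rich in Igfbp2 too, so the control levels are not those of astrocytes alone. Igfbp5 was also higher in the reactive astrocyte class, with 187 and 207 CPM in control libraries. The knockout libraries, at 50.4 and 58.8 CPM, were close to their other spots (46.7 and 43.3 CPM). Over the 4 libraries the class change of Igfbp5 was 0.96 (SE 0.20, adjusted p 0.00625), and 0.64 without meningeal spots.

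Igfbp7 followed vessels. In the lesion endothelial class, by markers such as Angpt2, Plvap and Procr, it measured 156, 92.7, 437 and 512 CPM against 47.9, 37.0, 135 and 118 CPM in the other spots (log2 1.76, SE 0.10, adjusted p 4.7e-07). The changes of the endothelial and mural classes were close to it, at 1.68 and 1.61. Igfbp3 was highest in meningeal spots, at 58.6, 49.0, 73.8 and 97.2 CPM against 14.8, 13.8, 37.9 and 39.8 CPM elsewhere (log2 1.52, SE 0.15, adjusted p 0.000172).

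Igfbp6 and Igfbp4 were the binding proteins called higher in excitatory neuron spots. Igfbp6 measured 125, 81.8, 94.0 and 84.5 CPM in excitatory neuron spots against 21.8, 22.2, 37.0 and 41.4 CPM elsewhere (log2 1.69, SE 0.19, adjusted p 0.000116), and these spots held 38.6%, 30.5%, 18.1% and 17.7% of its UMIs. In oligodendrocyte spots, defined by myelin genes, it measured only 7.93, 7.92, 9.39 and 9.41 CPM (log2 -2.09, SE 0.10, adjusted p 1.2e-07). Igfbp4 was higher in excitatory neuron spots (log2 0.59, SE 0.07) and in meningeal spots (log2 0.83, SE 0.07), the latter 0.46 with the top 20% of spots, and lower in oligodendrocyte spots (log2 -0.87, SE 0.10).

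Each gene was also set against all others across spots. Across spots of at least 5000 UMIs, the genes whose log counts per 10000 had the highest mean correlation over the 4 libraries were Slc6a20a, Col1a2 and Vtn for Igf2 (mean r 0.48, 0.45 and 0.44). Spots of a library share its depth and section, so these are descriptions. They were Vim, Mt2 and S100a6 for Igfbp2 (0.50, 0.38 and 0.36), and the r with Vim was 0.38 and 0.24 in the controls against 0.69 and 0.68 in the knockouts. Ly6a, Vim and Mgp led for Igfbp7 (0.30, 0.27 and 0.26), Mef2c, Nrgn and Camk2n1 for Igfbp6 (0.38, 0.35 and 0.35), and Nrgn, Slc17a7 and Rasgrp1 for Igfbp4 (0.32, 0.28 and 0.27). The leading values for Igfbp3 (Dcn, 0.19, Nnat and Cpne7, both 0.15) and Igfbp5 (Ptgds, 0.16, and Clu, 0.15) were low. No gene reached 0.15 with Igf1 or Igf1r.

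Knockouts and controls were then compared within each class. Igfbp3 and Igfbp7 were higher in the knockouts in all 12 classes, Igf1r in 10 and Igfbp2 in 9, and Igfbp5 was lower in 11. In all 69 of 108 pairs passed, 53 higher and 16 lower. Read by class, 9 of the 9 genes were called among microglia spots (30.1% of all genes), 8 among activated phagocyte spots (33.2%), 7 among astrocyte spots (24.2%) and 6 each among endothelial (19.3%), reactive astrocyte (27.6%) and oligodendrocyte spots (29.0%). There were 5 each among meningeal (18.2%), lesion endothelial (15.6%) and inhibitory neuron spots (18.0%), and 4 each among choroid plexus (18.2%), mural (13%) and excitatory neuron spots (26.9%). Of the called pairs, 45 kept their call under every alternative.

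**Figure D4:**
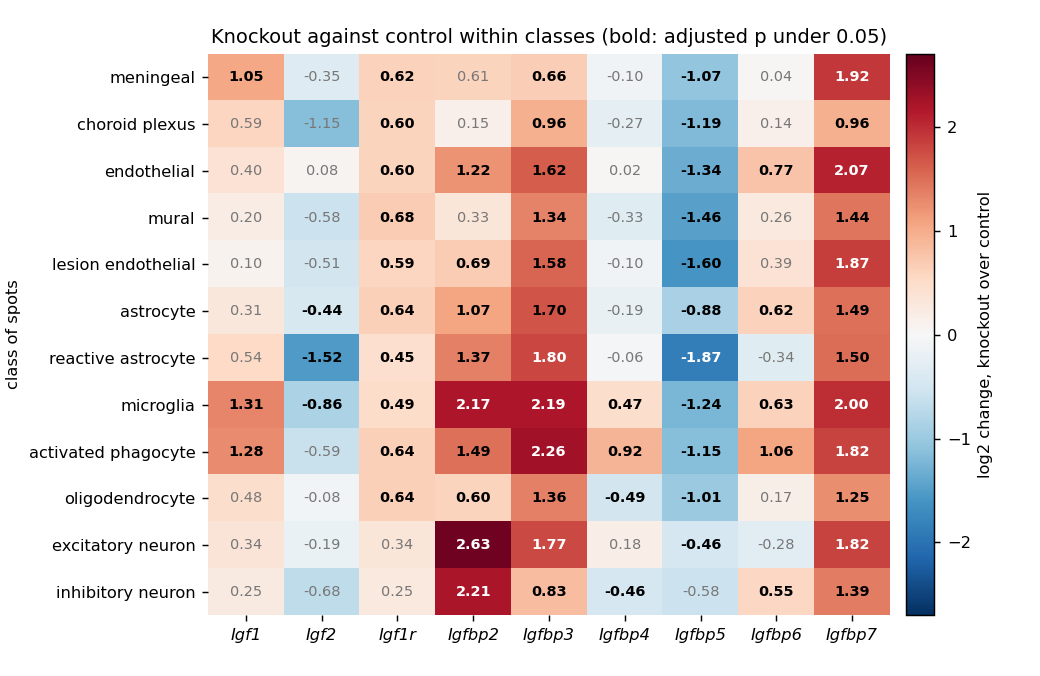
Log2 change of each gene (columns) between knockout and control spots of the same class (rows), 2 libraries each, with bold values where the adjusted p is under 0.05. The Igfbp3 and Igfbp7 columns are positive and called in all 12 classes, and Igfbp2 ranges from 0.15 in choroid plexus spots to 2.63 in excitatory neuron spots.

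With the classes as first formed, the rise of Igfbp2 was widest in neuron and microglia spots. Reactive astrocyte spots showed a still wider rise when meningeal spots were left out, as given below. In excitatory neuron spots it went from 45.2 and 35.0 CPM to 326 and 195 CPM (log2 2.63, SE 0.20, adjusted p 1.8e-07), and in reactive astrocyte spots from 283 and 160 CPM to 608 and 542 CPM (log2 1.37, SE 0.18, adjusted p 3.8e-05). In oligodendrocyte spots it rose only from 61.1 and 47.1 CPM to 78.4 and 90.8 CPM (log2 0.60, SE 0.11, adjusted p 0.000224), which became 1.22 on thinned spots. In meningeal spots (257 and 140 against 361 and 260 CPM) the change of 0.61 was not called (adjusted p 0.0569).

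The difference of the knockout change between class and other spots was tested as the interaction of genotype and class. In all 29 of 108 pairs passed. By class these were 2 genes each in meningeal (2.59% of all genes called), choroid plexus (7.49%), lesion endothelial (0.688%) and excitatory neuron spots (4.68%), and 1 each in endothelial (0.223%), mural (0.303%) and astrocyte spots (2.13%). There were 5 each in reactive astrocyte (11.4%), microglia (5.36%) and activated phagocyte spots (16.0%), 3 in oligodendrocyte spots (8.59%) and 0 in inhibitory neuron spots (0.331%), where 4 had an unadjusted p under 0.05. The test was called for Igfbp2 in 10 classes, 9 of them with a smaller change in the class. The difference was -2.09 in choroid plexus spots (7.49% of all genes called) and -1.60 in oligodendrocyte spots (8.59%), and both kept the call under every alternative, with -0.55 in choroid plexus spots without meningeal ones and -0.94 in oligodendrocyte spots after thinning. The choroid plexus class held 2080 and 724 CPM of its markers in controls but 158 and 159 CPM in knockouts, so its value compares unlike spots. In reactive astrocyte spots (11.4% of all genes called) the Igfbp2 difference was -0.80, and it turned to 1.15 (adjusted p 3.1e-18) without meningeal spots. Without control 1 it was -0.33 (adjusted p 0.0528). Of the reactive astrocyte spots, 41.3% and 32.0% were also meningeal in the controls against 21.3% and 25.3% in the knockouts. Without the meningeal spots the knockout change of Igfbp2 within the class was 3.38 in place of 1.37.

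Ranking all spots by their share of reactive astrocyte markers, on spots thinned to 5000 UMIs, showed the same gene by degree. Igfbp2 measured 38.8, 32.0, 36.5 and 27.1 CPM in the lowest decile of control 1, control 2, knockout 1 and knockout 2. At that end the groups overlapped. In the fifth decile it measured 39.6 and 41.4 CPM in control sections against 185 and 209 CPM in knockout sections, and in the highest decile 220 and 111 against 590 and 547 CPM. In the knockouts each decile stood above the one before it, and in the lower 8 deciles of the controls it stayed between 31.7 and 51.3 CPM. This ranking was added after the values of the classes were known.

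Igfbp5 showed no such gradient in the knockouts. From the lowest to the highest decile it measured 56.8 and 49.5 CPM in knockout 1 and 59.9 and 55.5 CPM in knockout 2, against 59.0 and 149 CPM in control 1 and 64.8 and 149 CPM in control 2. The groups were thus apart at the reactive end and close at the other. Within reactive astrocyte spots the change was -1.87 (SE 0.12, adjusted p 3.5e-08), and it differed from that of other spots by -1.11 (adjusted p 1.1e-11). These values include meningeal spots, whose share of the class was lower in the knockouts, as given for Igfbp2. By deciles of the meningeal share, the top decile held 113 and 152 CPM of Igfbp5 in control sections against 49.5 and 72.8 CPM in knockout sections.

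Igfbp7 rose by 2.07 on the log2 scale in endothelial spots (SE 0.13, adjusted p 6.0e-08), from 128 and 88.5 CPM to 448 and 485 CPM, the largest of its 12 class changes. The endothelial marker list in those spots measured 1089 and 1045 CPM in control sections against 2641 and 3056 CPM in knockout sections. By deciles of the endothelial share, Igfbp7 went from 100 and 80.7 CPM at the low end to 399 and 494 CPM at the high end in the knockouts. In the controls it went from 49.3 and 28.9 to 112 and 70.6 CPM, so the lowest knockout deciles lay between the highest deciles of the controls.

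**Figure D5:**
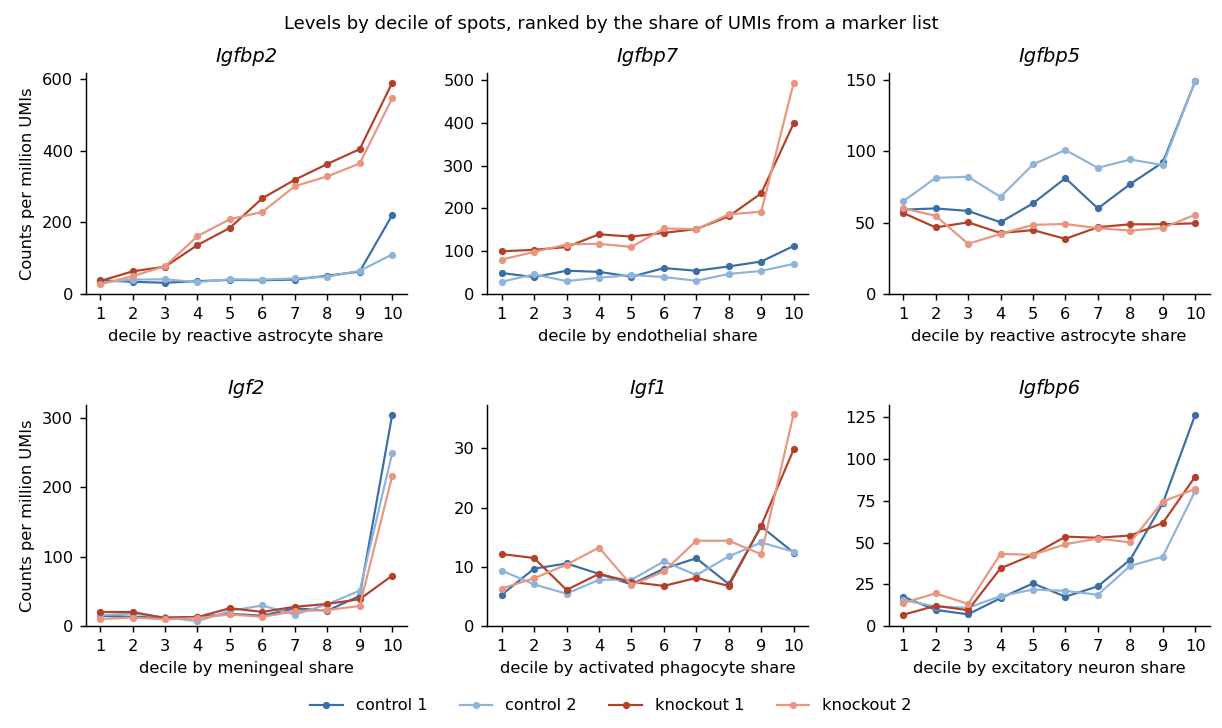
Levels of 6 genes in CPM by decile of spots, ranked in each library by the share of UMIs from the marker list named under each panel, on spots of at least 5000 UMIs thinned to that number. In the knockouts Igfbp2 climbs with the reactive astrocyte share while Igfbp5 stays flat, Igf1 leaves the control range in the top decile by phagocyte share, and Igf2 of knockout 1 stays low in the top meningeal decile.

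Igf1 rose within phagocyte-rich spots. In the activated phagocyte class the change was 1.28 (SE 0.20, adjusted p 0.00013) and in the microglia class 1.31 (SE 0.21, adjusted p 0.000186), from 11.4 and 9.66 CPM to 22.6 and 29.0 CPM. The change was larger than in other spots by 1.01 in the activated phagocyte class (SE 0.23, adjusted p 0.00134, 16.0% of all genes called) under every alternative. In the microglia class the difference of 1.03 (adjusted p 0.0126, 5.36% of all genes called) was not called with the mean scaled marker score (adjusted p 0.171), on thinned spots (adjusted p 0.0634), without control 2 (adjusted p 0.167) or without knockout 2 (adjusted p 0.128). By deciles of the phagocyte share the top decile held 12.4 and 12.5 CPM in control sections against 29.8 and 35.8 CPM in knockout sections, and the ninth 16.8, 14.1, 16.9 and 12.1 CPM with no gap between the groups. The meningeal class also showed a rise of Igf1 (log2 1.05, adjusted p 0.0175), which was lost without control 1 (adjusted p 0.0877), without knockout 2 (log2 0.53, adjusted p 0.426) and under 3 other alternatives.

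Phagocyte-rich spots of the knockouts also held more of several binding proteins. Igfbp3 went from 16.6 and 13.2 CPM to 67.1 and 79.3 CPM in the activated phagocyte class (log2 2.26, SE 0.17, adjusted p 4.0e-08), and the rise exceeded that of other spots by 1.07 (adjusted p 8.5e-06). Igfbp4, whose whole-section level overlapped between the groups, went from 46.1 and 49.5 CPM to 93.1 and 96.2 CPM in the same spots (log2 0.92, SE 0.13, adjusted p 4.7e-05) and exceeded other spots by 1.07 (adjusted p 9.7e-09). On thinned spots those values of Igfbp4 were 0.58 and 0.62, both still called. Igfbp6 rose there from 31.2 and 27.4 CPM to 62.7 and 64.1 CPM (log2 1.06, adjusted p 3.6e-05), but not in the top 5% of spots (log2 0.42, adjusted p 0.119). The summed markers of the class measured 1366 and 1232 CPM in control sections against 3197 and 3930 CPM in knockout sections, and their part in these rises was not tested.

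In oligodendrocyte spots Igfbp4 went the other way, from 26.1 and 30.8 CPM to 20.4 and 22.9 CPM (log2 -0.49, adjusted p 0.011), a call lost under 5 alternatives, among them without control 2 (adjusted p 0.245) and without knockout 1 (adjusted p 0.0562). Igf1r rose in the same spots from 33.5 and 29.1 CPM to 49.6 and 51.8 CPM (log2 0.64, SE 0.11, adjusted p 9.9e-05). The change of Igf1r did not differ between class and other spots beyond the test in any of the 12 classes, with differences from -0.15 to 0.29.

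Igf2 did not change within meningeal spots beyond the spread of the libraries (log2 -0.35, SE 0.24, adjusted p 0.348). That value rests on knockout 1, since it was 0.10 without it and -1.10 (adjusted p 1.5e-05) without knockout 2. On thinned spots it was -1.0 (adjusted p 0.0389). In reactive astrocyte spots Igf2 fell from 359 and 276 CPM to 70.2 and 151 CPM (log2 -1.52, SE 0.22, adjusted p 0.000117), by 1.70 more than in other spots (adjusted p 1.6e-16). The knockouts differed widely from each other there, and so small a p does not measure that spread alone. The share of reactive astrocyte spots that were also meningeal was lower in the knockouts, as given for Igfbp2. Without meningeal spots the fall was -1.07 (adjusted p 2.5e-05) and the difference -0.92 (adjusted p 1.4e-05). Neither value was called when spots were classed by the mean scaled marker score (log2 -0.66, adjusted p 0.131, and -0.74, adjusted p 0.249). Igfbp6 in excitatory neuron spots differed from other spots in its knockout change by -1.04 (SE 0.15, adjusted p 0.000215, 4.68% of all genes called). Within the class the change was -0.28 (adjusted p 0.198). The difference kept its call under every alternative run on classes. Equal numbers of spots per region were compared in whole sections only, so the part of section content in this difference was not tested.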

How the data were processed

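Visium libraries of 2 control and 2 knockout mouse brain sections were analysed. The deposited matrices hold UMI counts per gene and spot, whole numbers that the authors made with Space Ranger on mm10, per the submitters' processing notes, with no version given in the sources used here. Members and gene lists were chosen with earlier results of these data known.

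Spots of at least 1000 UMIs were kept, which left 98.6% to 99.5% of each library's UMIs. Counts were summed per library and tested with edgeR 4.0.16 (TMM, filterByExpr, quasi-likelihood test, Benjamini-Hochberg adjustment over all genes tested, threshold 0.05) in R 4.3.3, with DESeq2 1.42.0 as an alternative. For each of 12 marker lists, the 10% of a library's kept spots with the highest share of list UMIs formed a class. Class sums were compared with the sums of the other spots (library as a block), between genotypes within the class, and for the interaction of both, always over libraries and never over spots. Levels in classes and deciles are plain CPM. Class markers hold no member. Alternatives were other normalizations, filters and depths, other class sizes and scores, thinning, equal numbers of spots per region, the replicate number as a block, and each library left out. Equal numbers of spots per region were drawn for whole sections only and not for classes. Leaving out meningeal spots and crossing the replicate numbers were chosen after seeing the data. Named genes were all 9 members, up to 8 called pathway genes of at least 5 CPM by smallest p, and up to 3 genes per member by mean correlation of at least 0.15. The test scripts were tested on simulated data. Promoter sequences are RefSeq's for GRCm38.p6.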

Additional observations from a re-analysis of the deposited data

Results flagged for a closer look

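The knockout change differed between the spots of a class and the other spots, by the interaction of genotype and class in edgeR's quasi-likelihood test, in 29 of 108 pairs of gene and class. Of all genes, 0.223% to 16% were called, depending on the class. Of the 29 differences, 8 kept their call under every alternative run on classes, and the others listed below did not. Among those that kept it were Igfbp2 in choroid plexus and oligodendrocyte spots and Igfbp6 in excitatory neuron spots. Knockout spots of the choroid plexus class held few choroid plexus markers, as given above, so the differences in that class compare unlike spots. Values are log2 differences, negative where the change was lower in the class than in other spots, and no explanation was tested.

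Igfbp2 accounted for 10 of them. Its difference was -1.77 in meningeal, -2.09 in choroid plexus, -0.98 in endothelial, -2.01 in mural and -1.56 in lesion endothelial spots. It was -1.16 in astrocyte, -0.80 in reactive astrocyte, -0.71 in activated phagocyte and -1.60 in oligodendrocyte spots, and 0.57 in excitatory neuron spots. The reactive astrocyte value turned positive without meningeal spots, as given above.

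Igfbp3 differed by -0.76 in meningeal, 0.63 in reactive astrocyte, 0.98 in microglia and 1.07 in activated phagocyte spots. Igfbp4 differed by 0.58 in microglia, 1.07 in activated phagocyte and -0.43 in oligodendrocyte spots. For Igfbp5 the differences were -0.83 in lesion endothelial, -1.11 in reactive astrocyte and -0.44 in microglia spots.

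Igfbp6 differed by -0.84 in reactive astrocyte, 0.62 in activated phagocyte and -1.04 in excitatory neuron spots, and Igfbp7 by -0.61 in choroid plexus, 0.40 in microglia and -0.41 in oligodendrocyte spots. Among the ligands, Igf1 differed by 1.03 in microglia and 1.01 in activated phagocyte spots and Igf2 by -1.70 in reactive astrocyte spots. The microglia value of Igf1 and the value of Igf2 were not called under some alternatives, as given above.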

How the results depend on the processing

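Of 688 values of single genes under alternatives, 640 kept direction and side of the threshold, 34 lost the call, 10 gained it and 4 changed sign, and the causes were not tested. The sign changes were Igfbp4 in whole sections (0.27 on spots thinned to 1000 UMIs, 0.061 with matched regions), Igf2 within meningeal spots without knockout 1 (0.10, against -1.10 without knockout 2) and the Igfbp2 interaction in reactive astrocyte spots without meningeal spots (1.15). Called members of the whole-section test numbered 6 to 8 under all alternatives. In the main test 7 members were called, beside 38.4% of all genes. The share of all genes called under each alternative is not given here. Whether the counts of members, pathway genes and pairs moved with calls in general was therefore not tested. The 17 called pathway genes became 11 with DESeq2 and 11 on thinned spots. All called genes went from 6739 to 5393 with DESeq2 and to 3508 on thinned spots, where fewer genes were tested. The 29 interactions became 18 on spots thinned to 5000 UMIs. Leaving out each library gave 7 to 8 members, 10 (without knockout 1) to 21 pathway genes, 4924 to 7182 genes, 70 to 82 class pairs, 65 to 72 within-class pairs and 28 to 40 interactions. Where this left a group with 1 library, it was assumed to vary like the other group. Scaling by library totals without TMM moved the median of all genes to 0.07 and the split of calls from 3532 higher and 3207 lower to 4282 and 2258. With the replicate number as a block there were 8 members, 12 pathway genes, 5813 genes and 73 within-class pairs, but same-numbered libraries deviated in opposite directions (r = -0.28 over 11543 genes), so the number shows no pairing. The crossed pairing gave 8, 20 and 8176. Igf1 had the fewest counts of the 9 genes, which limits its precision.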
